A study of Mus musculus with 3 samples.

Results

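Myc and 31 genes of ribosome biogenesis were examined in single cells from mammary tumours of mice, as 32 of the 55357 genes listed in the deposited matrices. The genes were found by their symbols, each of which matched 1 row in both libraries. They had been picked with earlier results of these same libraries known, both the levels of these genes in each cell class and their differences between the libraries, so the values below are a description and support no conclusion about the set as such.

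Ribosomes are built in the nucleolus. RNA polymerase I transcribes the precursor of ribosomal RNA, small nucleolar ribonucleoproteins modify it (box C/D particles by methylation, box H/ACA particles by pseudouridylation), and assembly factors fold, cut and package it into the small and the large subunit. Myc is a transcription factor that is known to drive many of these genes in proliferating cells, and growing cells, activated lymphocytes among them, are known for high nucleolar activity.

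The tumours grew from 4T1, a mouse mammary carcinoma line, in female mice aged 8 to 10 weeks that were kept for 8 days. The sgCPT1A line carried a guide to Cpt1a, the enzyme that admits long-chain fatty acids to mitochondria, and its genotype label reads as a CPT1A knockdown. The sgVC line, labelled WT, was the one it was set against. Whole tumour tissue was minced and digested with papain and DNase, with no sort stated, and sequenced with 10x Genomics 3′ chemistry. A second sgCPT1A sample, marked as additional, was not analysed here, and the sources used here do not say if the sgCPT1A matrix includes it. There was 1 library per line, the number of mice behind each is not given, and no difference below has a replicate check or a test. Intervals are exact 95% intervals that cover counting error only, and a PCR or sampling difference between the libraries lies outside them.

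The sgCPT1A library held 7198 barcodes and 35557125 unique molecular identifiers (UMIs), with a median of 2786 per barcode, against 9890 barcodes and 155948212 UMIs in sgVC, with a median of 10809. After filtering, 6743 and 9291 cells were kept. The libraries shared 18 barcodes. Clusters of cells were named from marker lists: tumour-like cells numbered 46 in sgCPT1A and 4479 in sgVC, macrophage-like cells (monocytes included) 311 and 1382, T-like cells 577 and 933, fibroblast-like cells 514 and 394, and neutrophil-like cells 5141 and 1796. All markers of the macrophage, T and fibroblast lists were seen in at least 10% of the cells of their class in both libraries. Of the neutrophil list, Ly6g was seen in 3.19% of the class in sgCPT1A and 3.45% in sgVC, and Retnlg in 9.03% and 21.6%. Being seen in at least 10% of neutrophil-like cells held for 8 of 10 markers in sgCPT1A and 9 of 10 in sgVC. In tumour-like cells this held for 10 of 10 epithelial markers in sgCPT1A and 5 of 10 in sgVC, where Wfdc2 led with 2407 CPM (a gene's UMIs per 1000000 UMIs of the class) and Cdh1, the gene of E-cadherin, stood at 0.453 CPM. Of the T-like cells, 39 in sgCPT1A and 111 in sgVC had more UMIs of NK markers than of any other list. Cpt1a itself was at 30.3 CPM (25 UMIs) in tumour-like cells of sgCPT1A and at 17.4 CPM (2113 UMIs) in those of sgVC, a log2 ratio of 0.80 (0.17 to 1.37). It was also higher in sgCPT1A in the other 4 classes, by 0.74 to 1.02. The transcript was thus not lower in sgCPT1A in any class. Of the 46 tumour-like cells of sgCPT1A, 41 lay in 1 cluster that held 32 of the sgVC cells. The tumour-like values therefore do not compare like cells, and the level is no check of the knockdown label. Tags from the 3′ end do not read a guide site elsewhere in the gene and so do not check the edit. The names sgCPT1A and sgVC stand below for the libraries labelled so.

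Promoter windows were read first, because Myc is known to bind the E-box CACGTG. RefSeq windows (GRCm38.p6) from 250 bases before to 50 after a gene's start were at hand for 26 of the 32 genes, all but Myc, Rrs1, Fbl, Npm1, Bop1 and Dcaf13. The motif reads the same on both strands. It was present in 5 of the 26 genes (19.2%), against 2187 of 27025 genes (8.09%) over all promoters in the table. The median GC content was 59% over the windows of the 26 genes and 52.7% over all windows. The windows around each match are shown because they set the motif in its context, 5′ to 3′ on the strand of the gene, with the E-box in capitals:
Nop2: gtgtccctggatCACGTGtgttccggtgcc
Utp4: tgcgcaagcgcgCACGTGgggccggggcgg
Utp20: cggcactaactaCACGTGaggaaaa
Pes1: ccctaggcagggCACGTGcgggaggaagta
Wdr43: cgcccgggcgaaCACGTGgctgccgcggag
They lie at chr6:125131811-125131840 (plus strand), chr8:106893643-106893672 (plus), chr10:88826765-88826789 (minus), chr11:3963965-3963994 (plus) and chr17:71616220-71616249 (plus), in the order shown. The motif began 60 bases before the start in Nop2, and 16, 38, 3 and 18 bases from it, on the transcribed side, in Utp4, Utp20, Pes1 and Wdr43. A match is a string of letters and not a bound site, and a window without one says nothing of binding elsewhere.

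A second feature that the choice of genes did not use was the small nucleolar RNA genes inside them. In GENCODE M21 (GRCm38), 6 of the 32 genes (18.8%) held a snoRNA gene on their own strand, against 258 of 21876 protein-coding genes (1.18%). These were Nop56 with 5, Nop58 with 4, Gnl3, Ncl and Wdr43 with 3 each, and Dkc1 with 1. SnoRNAs are the guide RNAs of the particles that hold Nop56, Nop58 and Dkc1 themselves. In 12 of the 32, an annotated gene lies on the other strand, and whether the counting used the strand was not given in the sources used here. Fbl and Mrto4 have 1 and 2 listed pseudogenes, and Npm1 is known for many near-identical copies, so part of their reads may have been lost or shared.

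**Figure D1:**
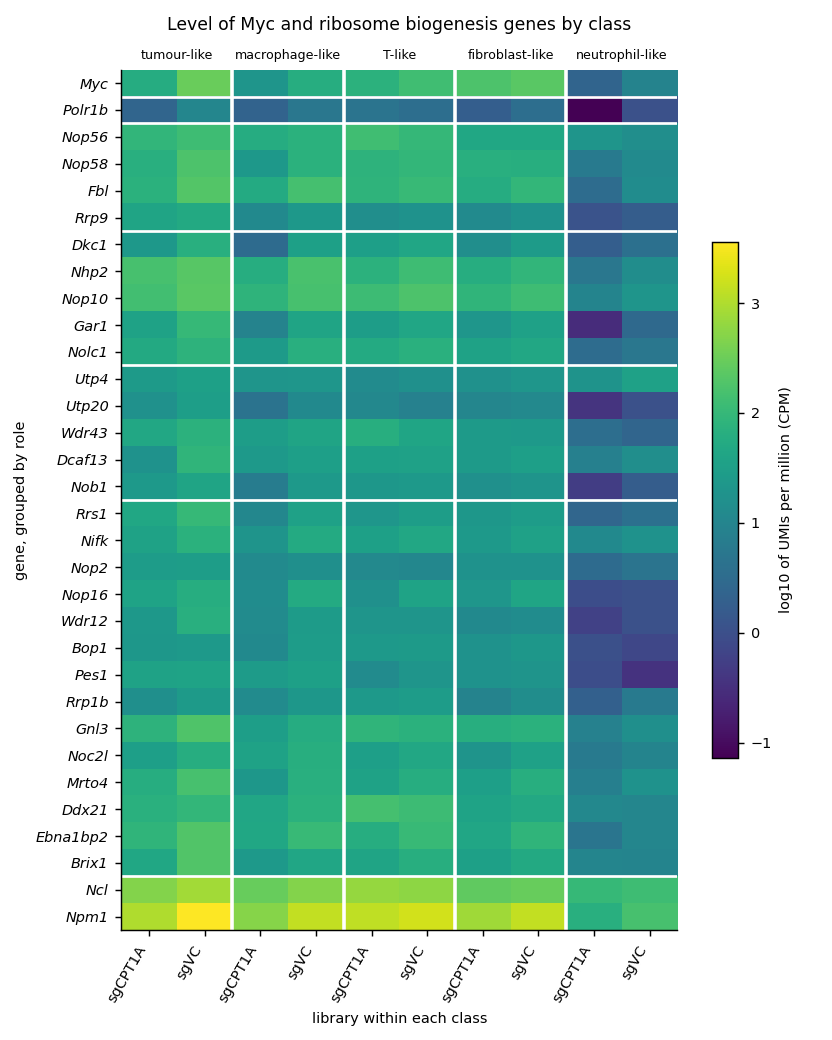
Level of each gene (log10 of CPM, colour) in 5 classes, with the sgCPT1A library left of sgVC in each pair; rows run by role from Myc at the top through polymerase I, box C/D, box H/ACA, small subunit and large subunit genes to the chaperones at the bottom. The brightest column is the tumour-like one of sgVC and the darkest are the neutrophil-like ones, and the tumour-like column of sgCPT1A rests on 46 cells.

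Within sgVC, tumour-like cells stood above the other classes. The 31 ribosome biogenesis genes together held 7262 CPM (7246 to 7277) in tumour-like cells, against 3905 CPM in T-like, 3414 in macrophage-like, 2866 in fibroblast-like and 541 in neutrophil-like cells. The counting intervals of these 5 sums do not overlap. The ratio of tumour-like cells to each class was 1.86-fold over T-like, 2.13-fold over macrophage-like, 2.53-fold over fibroblast-like and 13.4-fold over neutrophil-like cells. Npm1, a nucleolar histone chaperone, supplied 49.7% of the sum in tumour-like cells of sgVC, as a share of UMIs and not a level per length, and between 28.9% and 47.6% in the other classes. Without it the sum was 3649 CPM in tumour-like cells, 2181 in T-like, 2072 in macrophage-like, 1502 in fibroblast-like and 385 in neutrophil-like cells.

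Counted gene by gene against a fold of 1.5, all 32 had enough UMIs, and the counts for all genes are given beside them because genes in general were shifted too. Over macrophage-like cells, 21 of the 32 were at least 1.5-fold higher in tumour-like cells and 0 lower, where 42.9% of 15741 genes were higher and 25.4% lower. The median log2 ratio was 0.89, against 0.36 over all genes. Over T-like cells, 23 of the 32 were higher and 0 lower, where 41.1% of genes were higher and 26.7% lower. The medians were 0.89 for the set and 0.27 for all genes. Over fibroblast-like cells the count was 29 higher and 0 lower, beside 36.3% and 26.7% of genes, with medians of 1.29 and 0.20. Over neutrophil-like cells it was 31 higher and 0 lower, beside 68.9% and 19.8% of genes, with medians of 3.90 and 2.22. The choice of genes had used these levels, so nothing is read from the counts. Over neutrophil-like cells the log2 ratio of the summed 32 genes was 3.78, but 2.42 with scaling by the median ratio over genes and 2.37 where each cell was classed from its own markers.

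Myc was highest in tumour-like cells of sgVC and did not follow the ribosome biogenesis genes in its order of classes. Its level was 309 CPM in tumour-like, 223 CPM in fibroblast-like, 130 CPM in T-like, 60.3 CPM in macrophage-like and 8.96 CPM in neutrophil-like cells. Fibroblast-like cells came second for Myc, while for the sum of the 31 other genes both T-like and macrophage-like cells stood above them. Tumour-like over fibroblast-like cells, the log2 ratio was 0.47 (0.39 to 0.55) for Myc, under the 1.5-fold mark, and 1.34 (1.32 to 1.36) for the sum of the 31. Myc lies at chr15:61985391-61990374 on the plus strand (GRCm38).

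Of the 32 genes, 27 were highest in tumour-like cells of sgVC. The share of all genes that were highest there is not given here. The choice of genes had used these levels, so nothing is read from the count. Among the 5 other genes of the set, the class at the top often could not be separated from the next. Utp4, a small subunit processome protein, was at 33.9 CPM in tumour-like and 35.8 CPM in neutrophil-like cells. Those intervals overlap, and Utp4 was the only gene of the 32 that was not lowest in neutrophil-like cells, for its lowest level was in T-like cells (16.9 CPM). Bop1, part of the complex with Pes1 and Wdr12 that processes large subunit RNA, had 25.6 CPM in tumour-like, 28.5 CPM in macrophage-like and 26.2 CPM in T-like cells. Its complex partner Wdr12 had 66.5 CPM in tumour-like cells and 26.9 CPM in macrophage-like cells, while its partner Pes1 had 38.8 and 33.5 CPM. Over macrophage-like cells Wdr12 thus stood apart from Bop1 and Pes1. Rrp1b and Noc2l also had overlapping intervals at the top. Ddx21, a nucleolar RNA helicase, was the exception with separate intervals, at 92.1 CPM in tumour-like and 119 CPM in T-like cells.

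By role, the log2 ratio of the summed level was lowest for box H/ACA genes over macrophage-like and T-like cells (0.60 and 0.62) while the chaperones had 1.28 over macrophage-like cells. Of the 5 box H/ACA genes (Dkc1, the pseudouridine synthase, its core partners Nhp2, Nop10 and Gar1, and the chaperone Nolc1), 2 were at least 1.5-fold higher in tumour-like than in macrophage-like cells, where 42.9% of all genes were. All 5 small subunit genes (Utp4, Utp20 and Wdr43 of the processome, Dcaf13 and the nuclease Nob1) were past that mark. Polr1b, a polymerase I subunit, was scarce, with 10.3 CPM in tumour-like and 5.18 CPM in macrophage-like cells. Of 14 large subunit genes, 7 were past it over macrophage-like cells, 9 over T-like and 12 over fibroblast-like cells, beside 42.9%, 41.1% and 36.3% of all genes. Brix1, Rrs1, Gnl3 and Wdr12 led them over macrophage-like cells, with log2 ratios of 2.14, 1.51, 1.69 and 1.30, and Nop16, Pes1 and Rrp1b had 0.21 each. Ncl and Npm1, the abundant nucleolar proteins nucleolin and nucleophosmin, had 0.78 and 1.43.

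**Figure D2:**
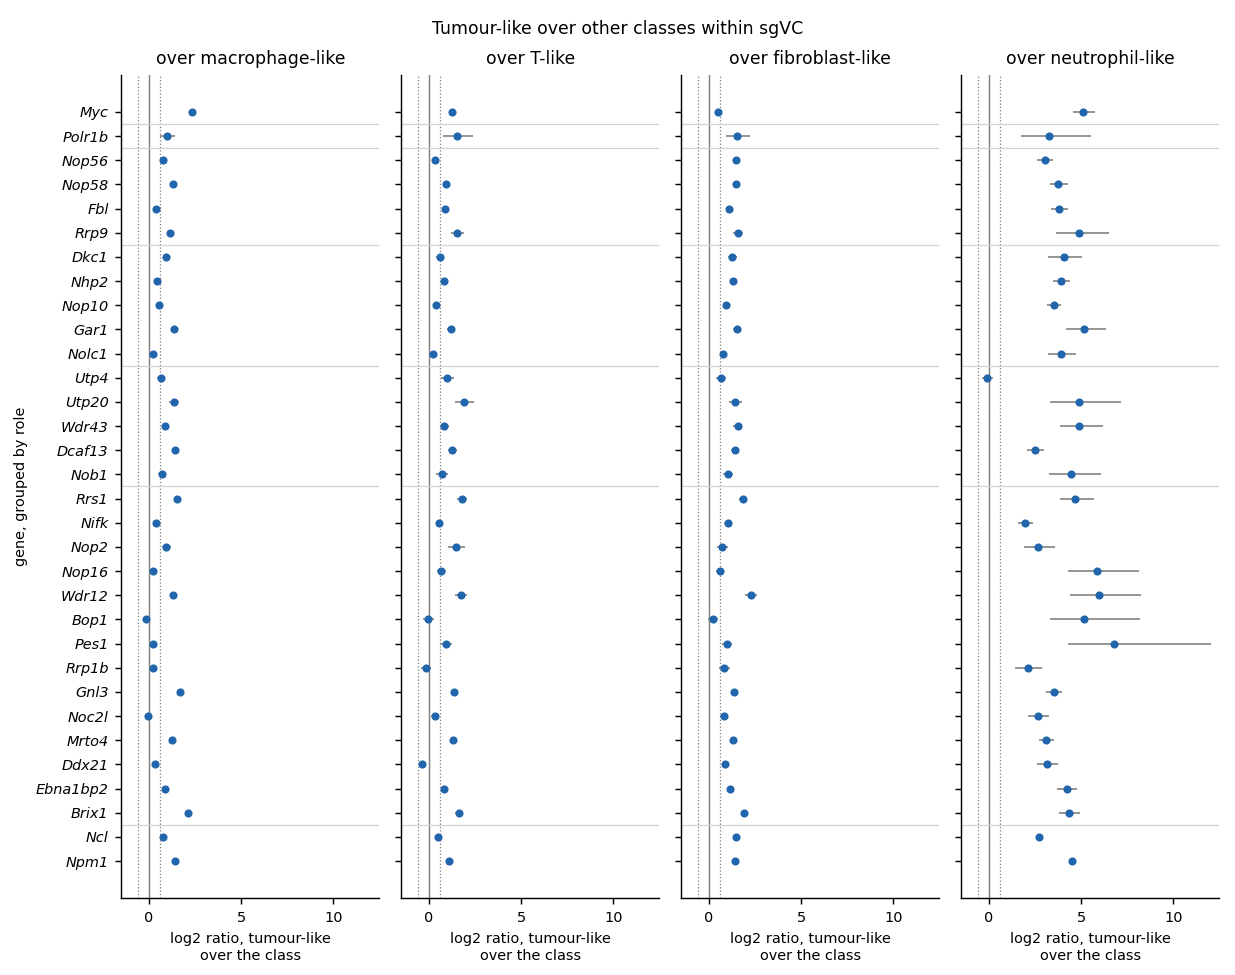
Log2 ratio of each gene in tumour-like cells over 4 other classes of the sgVC library, with exact 95% counting intervals; dotted lines mark 1.5-fold. Points lie to the right of 0 except Bop1 and Noc2l over macrophage-like cells, Bop1, Rrp1b and Ddx21 over T-like cells and Utp4 over neutrophil-like cells. The choice of genes had used these levels, so nothing is read from the side on which points lie.

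Tumour-like cells of sgVC lay in several clusters. In the 4 clusters of at least 335 cells the sum was 6863, 7598, 7023 and 7880 CPM. Myc in the same clusters was 330, 325, 269 and 152 CPM, so of these 4 the cluster with the highest sum had the lowest Myc. The 32 sgVC cells of a smaller cluster, led by Ptn and Krt19, had a sum of 3988 CPM and Myc at 65.2 CPM. The summed level of 28 cell cycle genes was 1931, 10013, 957 and 7958 CPM in the same order. Of these 4, the 2 clusters with the higher cell cycle levels had the higher sums of the 31 genes. These clusters are defined from expression itself, and the values describe them without a test.

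The same was examined cell by cell, with 4253 tumour-like sgVC cells thinned to 5000 UMIs and 226 shallower ones left out. A cell held 34.7 ± 11.7 UMIs (SD over cells) of the 31 genes, where counting alone would give an SD of 5.89. Cells with 0, 1 to 2, and 3 or more Myc UMIs held 33.5 ± 11.8, 35.0 ± 11.6 and 35.9 ± 11.7 UMIs of them (1471, 1833 and 949 cells). Nolc1 and Rrs1, a large subunit assembly factor, differed most in proportion among the 31, at a mean of 0.310, 0.370 and 0.480 UMIs for Nolc1 and 0.383, 0.502 and 0.571 UMIs for Rrs1 over the same 3 bins.

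The cells were also placed in 4 bins by their cell cycle UMIs, of 1291, 879, 1041 and 1042 cells from lowest to highest. The mean of the 31 genes over these bins was 32.3, 33.6, 38.9 and 34.3 UMIs per cell, highest in the third bin and not in the last. Nhp2 had means of 0.558, 0.741, 1.38 and 1.14 UMIs over the bins, and Nop58, a core box C/D protein, 0.566, 0.681, 1.10 and 0.971. Npm1 was nearly level, at 17.9, 17.2, 17.9 and 16.8 UMIs. Cells of the upper bins were deeper before thinning, with medians of 18318, 20260, 30847 and 34745 UMIs over the bins, and the part of depth in this was not tested. Within the highest bin, 368 cells with no Myc UMI and 215 cells with 3 or more held a mean of 32 and 36.7 UMIs of the 31 genes, and within the lowest bin 463 and 272 such cells held 31.8 and 32.7.

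**Figure D3:**
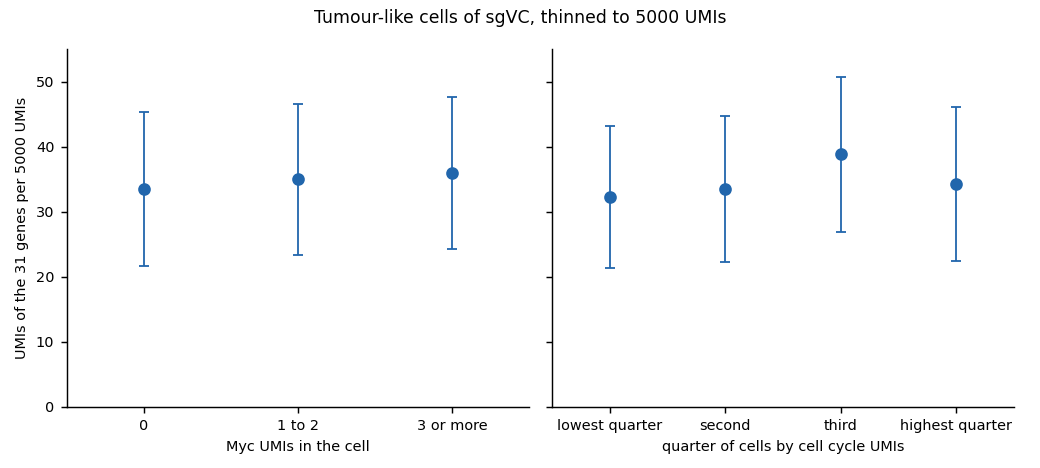
UMIs of the 31 ribosome biogenesis genes per tumour-like sgVC cell thinned to 5000 UMIs (mean as points, SD over cells as bars), by the cell's Myc UMIs (left) and by bin of cells ranked on cell cycle UMIs (right). Means run from 33.5 to 35.9 on the left and peak at 38.9 in the third bin on the right. The bars show the spread of single cells and are not errors of the means.

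Across these 4253 cells, Pearson's r of each of the 31 genes with the sum of the other 30, on log2 of UMIs plus 1, ran from 0.05 (Polr1b and Dcaf13) to 0.30 (Nhp2), with a median of 0.15. The median over 2914 other genes with at least 50 CPM was 0.00, and 10% of them exceeded 0.11. The sum had an r of 0.32 with ribosomal protein genes, 0.10 with cell cycle genes and 0.09 with Myc. The 10 other genes most like the sum were Eif5a (0.37), Rpsa (0.36), Rpl14 (0.34), Rps2 (0.34), C1qbp (0.34), Rps27a (0.33), Ran (0.32), Rack1 (0.31), Rpl12 (0.29) and Eif4a1 (0.28). All cells share 1 library and sparse counts lower every r, so these are descriptions only.

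In macrophage-like cells, the 31 ribosome biogenesis genes were at 1543 CPM (1492 to 1596) in sgCPT1A and at 3414 CPM (3377 to 3452) in sgVC, a fold of 0.452. Without Npm1 the sums were 1037 and 2072 CPM. Counted singly, 0 of the 32 genes were at least 1.5-fold higher in sgCPT1A and 26 were lower, where 15.1% of 11159 genes were higher and 24.3% lower. The choice of genes had used this difference, so nothing is read from the count. The median log2 ratio was -1.20 for the set and -0.11 over all genes.

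Myc in these cells had 20.8 CPM (46 UMIs) in sgCPT1A and 60.3 CPM (571 UMIs) in sgVC, a log2 ratio of -1.54 (-2.01 to -1.10). In the cluster that held most sgVC cells of the class the ratio was -2.57, on 5 and 390 UMIs, and in the one that held most sgCPT1A cells Myc had 26.4 CPM (36 UMIs) in sgCPT1A and 75.4 CPM (169 UMIs) in sgVC. Polr1b rested on 5 and 49 UMIs in sgCPT1A and sgVC, with an interval that includes 0. The 5 box H/ACA genes were all lower past the 1.5-fold mark, where 24.3% of all genes in this class were. Dkc1 had 3.16 CPM (7 UMIs) in sgCPT1A and 33.9 CPM (321 UMIs) in sgVC, and its log2 ratio of -3.42 (-4.75 to -2.37) was the lowest of the 32. Gar1 had 9.02 and 39.4 CPM in sgCPT1A and sgVC, and Nhp2 61.4 and 164 CPM. Of the box C/D genes, Fbl, the methyltransferase fibrillarin, had 55.04 CPM (122 UMIs) in sgCPT1A and 150 CPM (1418 UMIs) in sgVC. Nop58 had 23.5 and 72.2 CPM, while its partner Nop56 had 58.2 and 72.1 CPM, a log2 ratio of -0.31 (-0.59 to -0.03), the only box C/D gene inside the mark.

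The small subunit genes differed among themselves in macrophage-like cells. Nob1, which makes the last cut of the small subunit RNA, had 6.77 CPM in sgCPT1A and 24.5 CPM in sgVC, and Utp20 had 4.51 and 12.4 CPM. Utp4 had 20.3 and 21.5 CPM, a log2 ratio of -0.08 (-0.58 to 0.39) whose interval includes 0. Wdr43 and Dcaf13 were also inside the mark, at -0.45 and -0.38. Of the 14 large subunit genes, 12 were lower past the mark, beside 24.3% of all genes in this class. The choice of genes had used these differences, so nothing is read from the counts by role. The exceptions among the large subunit genes were Nop2, an RNA methyltransferase, and Pes1, at -0.27 and -0.26 with intervals that include 0. Nop16 had the lowest ratio there, with 14.0 CPM in sgCPT1A and 53.9 CPM in sgVC. Ncl had 286.5 and 478 CPM and Npm1 506 and 1342 CPM, log2 ratios of -0.74 and -1.41.

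Other genes of the same process were taken from lists of pathway members, to be read beside the 15.1% of all genes that were higher and the 24.3% that were lower past 1.5-fold in these cells. Of 37 other small subunit processome genes, 0 were higher and 23 lower in macrophage-like cells of sgCPT1A, with a median log2 ratio of -0.75. The most abundant were Emg1, a methyltransferase of the small subunit RNA, with 76.2 CPM in sgCPT1A and 182 CPM in sgVC, and Utp3 with 54.6 and 68.0 CPM, and the largest ratios were those of Wdr46 (-1.85) and Imp3 (-1.51). Of 38 other large subunit assembly genes, 0 were higher and 21 lower (median -0.71). The most abundant of them, Nsa2, had 212 CPM in sgCPT1A and 200 CPM in sgVC, a log2 ratio of 0.08 with an interval that includes 0. Eif6, which keeps the large subunit from joining early, had -0.46, and the largest ratios were those of Rrp15 (-2.21) and Nle1 (-2.19, on 4 and 78 UMIs).

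Of 17 other polymerase I genes, 0 were higher and 8 lower in macrophage-like cells (median -0.56), of 13 measured exosome genes 0 and 9 (-0.83), and of 14 snoRNA host genes 2 and 8 (-0.66). The RNA polymerase III list had 1 higher and 4 lower of 14 (-0.26), which is near the share over all genes. Of 48 other genes known to respond to MYC, 2 were higher and 33 lower (-1.04), of 28 cell cycle genes 0 and 25 (-1.42), and of 86 ribosomal protein genes 0 and 52 (-0.79). The p53 target list had 4 higher and 0 lower of 11 (0.12). The MYC network list had 1 higher and 1 lower of 14 (0.00). Mxd1, a dimer partner of Max known to oppose Myc, was the higher one, with 291 CPM in sgCPT1A and 162 CPM in sgVC, while its relatives Mxi1 and Mxd4 had log2 ratios of -0.03 and -0.53.

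The macrophage-like cells of the libraries lay mostly in different clusters. In sgCPT1A 216 of the 311 cells were in a cluster led by Pf4, Ccl8, Arg1 and Mmp12, and in sgVC 790 of the 1382 were in one led by H2-Ea, Lyz2 and H2-Aa. In the first, the sum of the 31 genes was 1526 CPM in sgCPT1A and 2684 CPM in sgVC (216 and 514 cells), and in the second 1805 and 3738 CPM (51 and 790 cells). Neutrophil markers summed to 3198 CPM in macrophage-like cells of sgCPT1A, against 883 CPM in those of sgVC, and tumour markers to 42.0 CPM in sgCPT1A, against 119 CPM in sgVC. The median over cells of the mitochondrial share of UMIs was 4.06% in sgCPT1A and 3.76% in sgVC in the first cluster, and 2.57% and 1.43% in the second. The part of these in the result was not tested. A subtraction of free RNA that removed 0.536% of UMIs in sgCPT1A and 2.69% in sgVC gave 26 lower and a median of -1.16. The share of all genes lower after that subtraction is not given here, so nothing is read from the count.

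**Figure D4:**
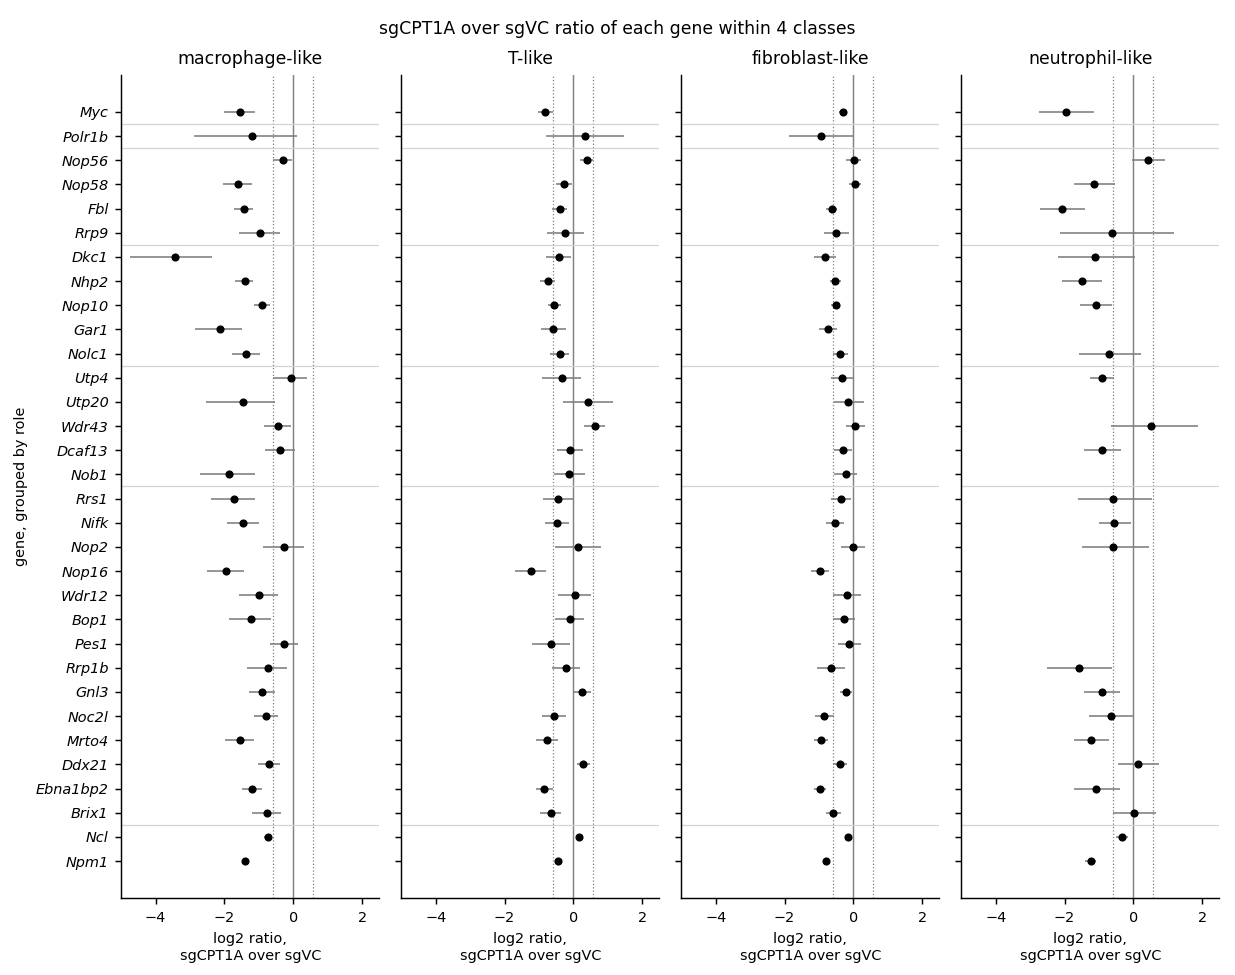
Log2 ratio of sgCPT1A over sgVC for each gene within 4 classes, with exact 95% counting intervals and dotted lines at 1.5-fold; genes under 20 UMIs over both libraries are left blank. Points lie left of 0 for all 32 genes in macrophage-like cells and on both sides in T-like cells, where the median is -0.36. Over all genes in macrophage-like cells, 4804 of 11159 lie above 0. The choice of genes had used these differences, so nothing is read from the side on which points lie.

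In T-like cells the differences were smaller and went both ways. The sum of the 31 genes was 3255 CPM (3196 to 3316) in sgCPT1A and 3905 CPM (3843 to 3968) in sgVC, a fold of 0.834. The log2 ratio of this sum was -0.26. Without Npm1 the sums were 1986 and 2181 CPM, and the log2 ratio was -0.14 (-0.18 to -0.09). Of the 32 genes, 1 was at least 1.5-fold higher and 7 were lower, beside 14.2% and 13.5% of 10401 genes. The median log2 ratio was -0.36 for the set and -0.01 over all genes.

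Wdr43 was the gene that was higher, with 64.0 CPM in sgCPT1A and 41.8 CPM in sgVC (log2 ratio 0.62, 0.32 to 0.92). Nop56 (128.5 and 98.6 CPM), Gnl3 (85.4 and 71.3 CPM), Ddx21 (146 and 119 CPM) and Ncl (659 and 585 CPM) had ratios above 0 within the mark, with intervals that exclude 0. Myc had 74.3 CPM (260 UMIs) in sgCPT1A and 130 CPM (502 UMIs) in sgVC, a log2 ratio of -0.81 (-1.03 to -0.59). The 6 other genes that were lower past the mark were Nop16, Ebna1bp2, Mrto4, Brix1 and Pes1 of the large subunit and Nhp2 of the box H/ACA particle, of which Nop16 was lowest at -1.24 (16.6 and 39.2 CPM). Npm1 had 1269 and 1724 CPM, a ratio of -0.44. Genes of 1 particle differed in sign here, with Nop56 at 0.38 beside Fbl at -0.40.

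Ribosomal protein genes in T-like cells summed to 212119 CPM in sgCPT1A and 210023 CPM in sgVC. Cell cycle genes were higher past the mark for 0 of 28 and lower for 16. Of 37 other small subunit processome genes, 0 were higher and 4 lower (median -0.31). Of 38 other large subunit assembly genes, 2 were higher and 6 lower (-0.13). Over all genes, 14.2% were higher and 13.5% lower. Of the 48 other MYC-responsive genes, 1 was higher and 11 were lower, and the most abundant and most shifted were Ldha (log2 ratio -0.49), Eif5a (-0.61), C1qbp (-1.12) and Ran (-0.88). The MYC network list had 4 higher and 1 lower of 14 (median 0.28), with Mxd1 at 0.66, Max at 0.37, Mxd4 at 0.87 and Mxd3 at -1.02. Neutrophil markers summed to 1841 CPM in T-like cells of sgCPT1A and 298 CPM in those of sgVC, and tumour markers to 84.3 and 173 CPM. The median over cells of the mitochondrial share of UMIs was 4.47% in sgCPT1A and 2.22% in sgVC in the large T-like cluster. The part of these in the result was not tested. In the cluster led by Gzma, Gzmb and Nkg7 the sum of the 31 genes was 3279 CPM in sgCPT1A and 3422 CPM in sgVC (96 and 332 cells), with intervals that overlap. In the large T-like cluster it was 3331 and 4201 CPM (453 and 600 cells), with intervals that do not. These intervals cover counting error only, with 1 library per group, so their overlap does not set the clusters apart.

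In fibroblast-like cells the sum was 1921 CPM (1896 to 1945) in sgCPT1A and 2866 CPM (2823 to 2909) in sgVC, a fold of 0.670. The log2 ratio of this sum was -0.58. Without Npm1 the sums were 1141 and 1502 CPM, and the log2 ratio was -0.40 (-0.43 to -0.36). Of the 32 genes, 0 were higher and 11 lower past 1.5-fold, beside 15.9% and 13.1% of 13216 genes. The median log2 ratio was -0.39, and -0.02 over all genes. With the barcodes called doublets kept, which were removed in sgVC only, the median was -0.74 and 18 genes were lower. With each cell thinned to 1000 UMIs, 7 were lower. The shares of all genes under these alternatives are not given here, so nothing is read from the counts. Tumour markers summed to 22.2 CPM in fibroblast-like cells of sgCPT1A and 157 CPM in those of sgVC, and neutrophil markers to 758 and 201 CPM. Their part in the result was not tested.

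Large subunit genes held 6 of the 11 in fibroblast-like cells. Ebna1bp2 had 44.0 CPM in sgCPT1A and 86.3 CPM in sgVC, Mrto4, a ribosome assembly factor, 32.7 and 62.7 CPM, and Nop16 21.2 and 41.4 CPM. Npm1 had 779.5 and 1364 CPM, a log2 ratio of -0.81 (-0.85 to -0.76). Nop56 and Nop58 had 44.9 and 66.2 CPM in sgCPT1A and 44.7 and 63.7 CPM in sgVC, with ratios of 0.01 and 0.06, while Fbl had 59.8 and 92.7 CPM. Myc had 180 CPM (2236 UMIs) in sgCPT1A and 223 CPM (1311 UMIs) in sgVC, a log2 ratio of -0.31 (-0.41 to -0.21), which is inside the mark. The MYC network list had 1 higher and 0 lower of 15 (median -0.10), with Mxd1 at 1.16, Mxd4 at 0.57 and Mga at 0.42. Of 37 other small subunit processome genes, 1 was higher and 9 lower (-0.35). Of 38 other large subunit assembly genes, 0 were higher and 9 lower (-0.20), and of 28 cell cycle genes 0 and 19 (-0.76). Over all genes, 15.9% were higher and 13.1% lower.

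In neutrophil-like cells the sum of the 31 genes was 321 CPM (311 to 330) in sgCPT1A and 541 CPM (514 to 569) in sgVC, a fold of 0.593. The log2 ratio of this sum was -0.75. Without Npm1 the sums were 255 and 385 CPM, and the log2 ratio was -0.59 (-0.69 to -0.49). Only 24 of the 32 genes had at least 20 UMIs over both libraries, and of those 0 were higher and 17 lower past 1.5-fold, beside 17.8% and 35.1% of 9292 genes. The medians were -0.92 for the 24 and -0.28 over all genes. With scaling by the median ratio the split was 2 higher and 13 lower, and with free RNA subtracted it was 6 and 7, at a median of -0.35. Where each cell was classed from its own markers, 30 were lower and the median was -2.14. For these alternatives the shares of all genes are not given here, so nothing is read from the counts.

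Myc in neutrophil-like cells rested on 32 UMIs in sgCPT1A (2.32 CPM) and 25 in sgVC (8.96 CPM), and its log2 ratio was -1.95 (-2.75 to -1.13), but 1.69 with free RNA subtracted and -3.16 where cells were classed from their own markers. Npm1 had 66.1 and 157 CPM and Fbl 3.34 and 14.0 CPM in sgCPT1A and sgVC, while Ncl had 100.03 and 126 CPM and Nop56 20.7 and 15.4 CPM. Tumour markers summed to 19.5 CPM in neutrophil-like cells of sgCPT1A and to 101 CPM in those of sgVC. Most sgCPT1A cells (4050 of 5141) were in the cluster led by Il1a and Clec4e, and most sgVC cells (1501 of 1796) in the one led by Retnlg. In the Retnlg cluster the sum was 399 CPM in sgCPT1A and 555 CPM in sgVC. The MYC network list had 1 higher and 6 lower of 13 (median -0.43), with Mxd1 at 0.50, Max at -0.64, Mxi1 at -1.14 and Mlx at -1.01. Of 30 measured other small subunit processome genes, 3 were higher and 12 lower (-0.55). Of 25 measured other large subunit assembly genes, 0 were higher and 10 lower (-0.47), and of 14 measured cell cycle genes 1 and 9 (-1.67). Over all genes, 17.8% were higher and 35.1% lower.

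Tumour-like cells could not be compared like with like. In sgCPT1A 41 of the 46 lay in 1 cluster, in which 50.7% of cells had an Epcam UMI and which was led by Ptn and Krt19 and held 32 sgVC cells. Over all tumour-like cells the 31 genes summed to 2932 CPM (2816 to 3051) in sgCPT1A and 7262 CPM in sgVC, with a median log2 ratio over the set of -0.89. In the Epcam cluster alone the sums were 2725 CPM (2605 to 2849) and 3988 CPM (3798 to 4185). Without that cluster, 5 sgCPT1A cells gave 4231 CPM against 7273 CPM in sgVC, and the median was -0.26. Myc had 37.9 CPM (27 UMIs) in sgCPT1A and 65.2 CPM (27 UMIs) in sgVC within the Epcam cluster. Library and kind of tumour-like cell cannot be told apart in the pooled values.

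Levels per cell were set side by side after each cell was thinned to 1000 UMIs, since depth differed between classes and libraries. Macrophage-like cells then held a mean of 1.51 UMIs of the 31 genes in sgCPT1A and 3.16 in sgVC, T-like cells 2.96 and 3.26, fibroblast-like cells 1.76 and 2.55, and neutrophil-like cells 0.311 and 0.566. The tumour-like mean was 2.98 UMIs in sgCPT1A (43 cells) and 6.85 in sgVC (4435 cells). The order of the libraries was thus the same as in the sums in each class. Cells with a Myc UMI made up 2.12% (0.782% to 4.56%, 6 cells) of macrophage-like cells in sgCPT1A and 5.30% (4.12% to 6.69%, 66 cells) in sgVC. These exact intervals overlap. The shares were 6.07% (4.21% to 8.41%) of T-like cells in sgCPT1A and 12.4% (10.3% to 14.8%) in sgVC. They were 15.6% and 19.6% of fibroblast-like cells, whose exact intervals overlap. Before thinning these shares were 8.04% and 22.6% of macrophage-like, 21.1% and 26.6% of T-like and 69.8% and 75.1% of fibroblast-like cells. In neutrophil-like cells, which should hold little Myc, the thinned share was 0.150% in sgCPT1A and 0.886% in sgVC. The shares of macrophage-like, T-like and fibroblast-like cells lay above those of neutrophil-like cells in both libraries, while 0 of 43 tumour-like cells of sgCPT1A had a Myc UMI (0% to 8.22%). Before thinning the median depth was 2631 UMIs in sgCPT1A and 1463 in sgVC for neutrophil-like cells, and 4890 and 2836 for T-like cells.

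**Figure D5:**
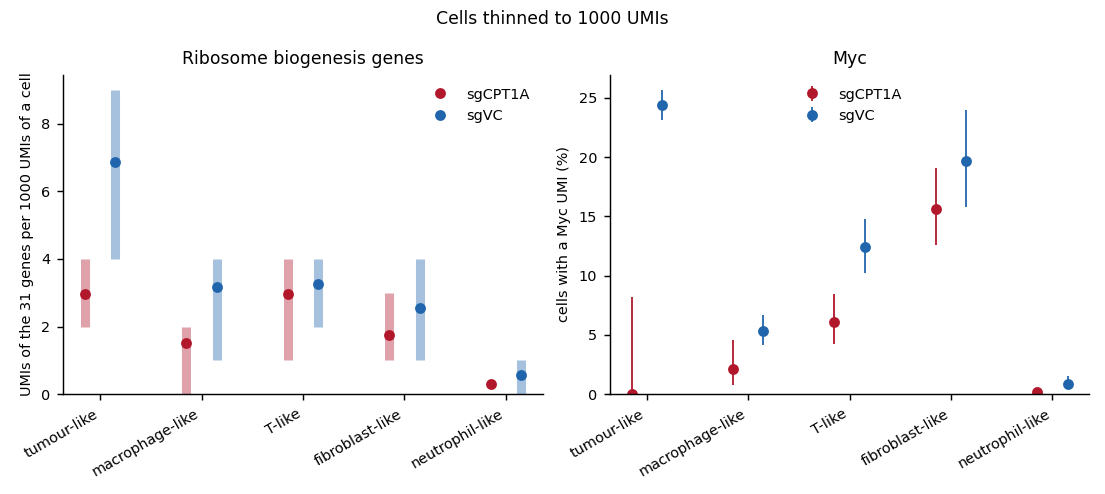
Cells thinned to 1000 UMIs, sgCPT1A (red) left of sgVC (blue): UMIs of the 31 genes per cell (left, mean as a point and quartiles as a bar, which has no length where both quartiles are 0) and the share of cells with a Myc UMI (right, exact 95% interval). Tumour-like cells of sgVC are highest in both panels, at 6.85 UMIs and 24.4%.

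Within sgCPT1A, where 4 classes had at least 50 cells, T-like cells were highest for 25 of the 32 genes. Fibroblast-like cells were highest for Myc, Rrs1, Nop2 and Nop16, and macrophage-like cells for Utp4, Pes1 and Noc2l. The intervals of the highest and the next class overlap for 18 of the 32, among them 13 of the 25 led by T-like cells and each gene just named except Myc and Pes1. Neutrophil-like cells were lowest for 31 of the 32 in sgCPT1A, as in sgVC, with Utp4 the exception in both libraries. For these counts the shares of all genes are not given here. The choice of genes had used the levels in each class, so nothing is read from the counts.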

How the data were processed

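The deposited matrices hold raw counts of unique molecular identifiers (UMIs) per gene and cell barcode, made with Cell Ranger 7.1.0 per the file headers. Seurat 4.1.0, Cell Ranger and the build GRCm38 stand in the submitters' processing notes. The annotation release, the counting of intronic reads, the strand setting and the step that called cells were not given in those sources. Matrices of 2 of the 3 listed samples were analysed, 1 for sgCPT1A and 1 for sgVC.

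Barcodes with under 200 genes (148 in sgCPT1A and 94 in sgVC) or over 20% mitochondrial UMIs (453 and 277) were left out. Scrublet called 319 doublets in sgVC, and these were removed. It called 3 in sgCPT1A, under 0.5% of barcodes, which was taken as a caller that had not worked, and no barcode was removed from that library on this ground. Cells were scaled to 10000 UMIs, and 2000 variable genes, 30 principal components and 15 neighbours gave 20 Leiden clusters at a resolution of 1 (scanpy 1.11.5, leidenalg 0.10.2, igraph 0.11.9). None of the 32 genes was among the variable genes. A cluster took the name of the marker list of which at least 3 genes were 2-fold higher there and seen in 10% of its cells. Altogether 4 versions of the clustering were tried. The first was replaced after its class sizes were seen, in favour of finer clusters nearer to an earlier account of these data, and some values of the 32 genes were seen under the second. The last change was made so that results repeat on another processor.

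UMIs were summed per class and library and given as CPM. Intervals are exact (Poisson for levels, conditional binomial for ratios, Clopper-Pearson for shares; scipy 1.17.1) and were checked on simulated counts. Genes whose UMIs over both libraries reached 20 counted as measured, and a fold of 1.5 was used for counts of genes. With 1 library per group there is no test. Cells were thinned at random to 1000 UMIs, or 5000 for tumour-like cells of sgVC. Alternatives covered cell filters, doublets, clustering, classing by a cell's own markers, scaling, thinning, cell weights, free RNA and thresholds. Free RNA was subtracted as the profile of the whole library, scaled to the lowest level of another class's markers.

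The 32 genes and all gene lists were chosen with earlier results of these data known. Other genes were to be named by a rule: the 10 most correlated with the sum, the 2 of highest level and the 2 of largest ratio per list and class, and marker and guide checks. These are given for 4 lists, namely both subunit lists in macrophage-like cells, the MYC-responsive list in T-like cells and the MYC network in 4 classes. Other lists are given by their counts only, some of them in macrophage-like cells alone, and which to give was decided after their values were seen. Cluster-leading genes were named after their values were seen. Annotation came from GENCODE M21 (GRCm38), which matched 52081 of 55357 gene identifiers, and promoters from RefSeq (GRCm38.p6).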

Additional observations from a re-analysis of the deposited data

How the results depend on the processing

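No paired analysis was possible because each group had 1 library. Depth differed between the libraries and 1 library per group leaves library and genotype inseparable, so the ranges below cover processing and counting only. The median log2 ratio of sgCPT1A over sgVC kept its sign under every alternative run: it ranged from -1.27 to -1.07 in macrophage-like, -0.51 to -0.34 in T-like, -0.74 to -0.33 in fibroblast-like and -2.14 to -0.35 in neutrophil-like cells. It moved most with doublets kept in fibroblast-like cells (-0.74), with cells classed from their own markers in neutrophil-like cells (-2.14), and without the Epcam cluster in tumour-like cells (-0.26). The counts of genes that follow have no share of all genes at the same setting beside them, so nothing is read from these counts. With a 2-fold mark, 17 genes were lower in macrophage-like cells, 1 in T-like, 0 in fibroblast-like and 10 in neutrophil-like cells, and 0 were higher in T-like cells. In fibroblast-like cells 18 were lower with doublets kept and 7 with thinning to 1000 UMIs. With equal weight per cell, 4 genes were higher in T-like and 1 in neutrophil-like cells. In neutrophil-like cells 30 were lower by own markers, 6 were higher and 7 lower with free RNA subtracted, and 2 were higher with scaling by the median ratio. Myc in neutrophil-like cells reversed to 1.69 with free RNA subtracted. Beyond the free RNA removed by construction, the causes were not tested.

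The log2 ratio of the summed 32 genes in tumour-like over other sgVC cells stayed above 0 throughout. Over T-like cells (0.91) it was 0.85 by own markers, 1.09 with equal weight per cell, 0.80 with the median ratio and 1.06 thinned. Over fibroblast-like cells (1.29) it was 1.26 by own markers, 1.02 with doublets kept, 1.39 with free RNA subtracted, 1.15 with the median ratio and 1.36 thinned. Over macrophage-like cells (1.12) it was 1.09 by own markers, 1.21 with equal weight, 1.17 with free RNA subtracted, 0.84 with the median ratio and 1.15 thinned. Over neutrophil-like cells (3.78) it was 2.37 by own markers, 3.58 with equal weight, 4.43 with free RNA subtracted, 2.42 with the median ratio and 3.64 thinned. An unweighted neighbour graph, chosen after seeing the data, moved none of the values computed under it, though it gave no separate Epcam cluster and no tumour-like comparison.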
